A study of Rattus norvegicus with 2 samples.

Results

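The miR-99, miR-100 and miR-125 miRNAs were examined in exosomes released by cultured heart muscle cells of newborn rats. Their rows were taken from the count table by name, as every row of miR-99a, miR-99b, miR-100, miR-125a, miR-125b, miR-125b-1 or miR-125b-2, whichever arm of the hairpin it came from. This gave 10 of the 635 rows, 5 of the 5p arm (mmu-miR-99a-5p, mmu-miR-99b-5p, mmu-miR-100-5p, mmu-miR-125a-5p and mmu-miR-125b-5p) and 5 of the 3p arm. The deposited names are mouse names, whereas the organism was rat, and the prefix is left out from here on.

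The study compared exosomal small RNA of normal and hypertrophic cardiomyocytes. The source was the heart of Wistar rats aged 1 to 2 days. Enzyme digestion freed the cells, other cells that attach faster were reduced by differential adhesion, and the culture medium held bromodeoxyuridine (BrdU) at 0.1 mM, an agent that limits the growth of dividing cells. After serum starvation, the cells were kept for 48 h without angiotensin II (Ang II), a peptide hormone used to induce hypertrophy, or with 1 μmol/L of it, and their exosomes are named NC-Exo and HC-Exo, respectively. Strain, age, BrdU and starvation were the same in both groups, the labels name no genetic alteration, and how many animals were pooled is not given in the sources used here. The cells were enriched by adhesion, with no sorting named, so cells other than cardiomyocytes could also have released exosomes. There was 1 library per group, with 102608 miRNA reads in NC-Exo against 133155 in HC-Exo, so that no difference between the groups has a replicate check. Levels are given as reads per 1000000 miRNA reads (RPM), where a single read is worth 9.75 RPM in NC-Exo and 7.51 RPM in HC-Exo.

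A miRNA is cut from a hairpin precursor, and either strand of the duplex, 5p or 3p, can be loaded into an Argonaute protein, where the seed near its 5′ end pairs with target mRNAs. The miR-125 family is the vertebrate counterpart of the nematode developmental timer lin-4, and miR-100 belongs to one of the oldest miRNA families of animals. Known targets include the growth kinase mTOR for miR-99 and miR-100, and Lin28, which blocks maturation of let-7, for miR-125. Both families are encoded beside let-7 genes in shared clusters.

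The mature 5p sequences are shown because the seed, bases 2 to 8 in capitals, defines the families, and because the bases after it decide whether reads of near-identical members can be told apart. They are RefSeq sequences of the rat assembly GRCr8, written 5′ to 3′ and encoded on the plus strand, except miR-351-5p on the minus strand. By name, 312 of the 635 rows matched a mature sequence there, 9 of the 10 family rows among them, all except miR-99a-5p.
miR-99b-5p: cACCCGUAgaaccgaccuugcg
miR-100-5p: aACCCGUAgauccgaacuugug
miR-125a-5p: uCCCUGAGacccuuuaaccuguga
miR-125b-5p: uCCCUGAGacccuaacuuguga
miR-351-5p: uCCCUGAGgagcccuuugagccuga
miR-99b-5p and miR-100-5p have the seed ACCCGUA in common. They are identical at 18 of 22 positions, with the substitutions C1A, A11U, C16A and C21U, where the base of miR-99b-5p comes first, then the position counted from 1 at the 5′ end, then the base of miR-100-5p. miR-125a-5p and miR-125b-5p have the seed CCCUGAG and the same first 13 bases, ucccugagacccu, and differ after them in length and sequence. Among the 312 matched rows, 3 have this seed, the other one being miR-351-5p, which has its first 8 bases in common with both but was not chosen by name and is given as an outside comparison. The matched rows with the seed ACCCGUA number 2, and no further matched row has it.

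The let-7 partners are shown because each cluster holds 1 let-7 gene between its miR-99/100 and its miR-125 gene. In the GRCr8 gene list the order is Mir99b, Mirlet7e, Mir125a in the first cluster, Mir99a, Mirlet7c1, Mir125b2 in the next, and Mir100, Mirlet7a-2, Mir125b1 in the last, each on a single chromosome. A further miRNA gene is listed inside each, Mir3596c, Mir3588 and Mir3596a in this order.
let-7e-5p: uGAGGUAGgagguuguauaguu
let-7c-5p: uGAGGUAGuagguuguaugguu
let-7a-5p: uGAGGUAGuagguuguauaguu
The seed GAGGUAG is the same in these 3, and 9 matched rows have it in all. let-7e-5p differs from let-7a-5p by G9U and let-7c-5p from let-7a-5p by G19A, read in the same way. How reads that match more than one name were counted is not given in the sources used here, so reads of such close sequences are uncertain.

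The labelled cell type was checked against marker miRNAs. All 6 striated muscle miRNAs of the list had reads and together made up 16.7% of the reads in NC-Exo against 18.1% in HC-Exo, nearly all of it from miR-1a-3p with 16614 and 23271 reads. The other 5 were unequal, with 417 and 694 reads of miR-133a-3p, 57 and 66 of miR-208b-3p (0.0556% and 0.0496%), 14 and 57 of miR-206-3p, 10 and 35 of miR-499-5p, and 9 and 24 of miR-208a-3p. The 2 endothelial rows held 9.11% and 6.68%, and they went opposite ways, with 8875 and 8185 reads of miR-126a-5p (8.65% and 6.15%) but 474 and 712 of miR-126a-3p (0.462% and 0.535%). The 4 smooth muscle and fibroblast rows held 3.66% and 3.68%. This level sum covers unequal members, as miR-143-3p, the most abundant, gave 1.56% and 1.93%, miR-214-3p 1.33% and 0.946%, miR-145a-5p 0.748% and 0.759%, and miR-199a-5p 0.0185% and 0.0443%. Muscle miRNAs were therefore present in both libraries beside those of other heart cells. Of 6 blood miRNAs, 5 were listed, with 0.153% and 0.198% of the reads and miR-150-5p the most abundant at 83 and 110 reads (0.0809% and 0.0826%). miR-223-3p had 43 and 94 (0.0419% and 0.0706%), the erythroid miR-451a 17 and 35, miR-142a-5p 12 and 23 and miR-142a-3p 2 and 2, while miR-144-3p was not listed. The liver miRNA miR-122-5p had 14 and 16 reads. The striated muscle and blood shares were higher in HC-Exo and the summed endothelial share lower, the latter through miR-126a-5p alone, and their part in the values that follow was not tested.

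Together the 10 rows held 4829 reads in NC-Exo, 4.71% of the library (Clopper-Pearson interval, 95% level, 4.58% to 4.84%), whereas HC-Exo held 6488, 4.87% (4.76% to 4.99%). Nearly all were of the 5p arm, with 4700 reads in NC-Exo and 6358 for HC-Exo, beside 129 and 130 of the 3p arm. All intervals given are at the 95% level and cover the counting error of reads only, because there was 1 library per group. They treat reads as independent, which reads copied by PCR are not, so they can be too narrow. Since the RNA came from the exosomes of whole cultures, more or fewer vesicles from a kind of cell and more or fewer copies per vesicle cannot be told apart.

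The 5p members spanned a wide range of levels. miR-125a-5p, made from the hairpin beside let-7e, had 3487 reads in NC-Exo, which is 33984 RPM (32883 to 35111), and 4491 in HC-Exo, 33728 RPM (32764 to 34711). It ranked 9 among all rows in NC-Exo against 7 in HC-Exo. miR-125b-5p, made from 2 hairpins in different clusters, had 922 reads in NC-Exo, 8986 RPM (8417 to 9582), and 1390 in HC-Exo, 10439 RPM (9900.0 to 10999). Its rank was 20 and 19, so that both miR-125 members were among the abundant miRNAs of each library.

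The miR-99/100 members were less abundant. miR-99b-5p, encoded in the same cluster as miR-125a, had 242 reads in NC-Exo, 2358 RPM (2071 to 2675), and 406 in HC-Exo, 3049 RPM (2760.1 to 3360.1). miR-99a-5p had 26 reads in NC-Exo, 253 RPM (166 to 371), and 44 in HC-Exo, 330.4 RPM (240.1 to 444). miR-100-5p had 23 reads in NC-Exo, 224 RPM (142 to 336), and 27 in HC-Exo, 203 RPM (134 to 295). The ranks were 53 and 47 for miR-99b-5p, 169 and 155 for miR-99a-5p, and 179 and 193 for miR-100-5p, in NC-Exo and HC-Exo.

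The order of the 5p levels by reads was miR-125a-5p, miR-125b-5p, miR-99b-5p, miR-99a-5p and miR-100-5p in both libraries. Neighbours in this order differed beyond counting error except the last pair. In NC-Exo the reads of miR-125a-5p were 3.78 times those of miR-125b-5p (3.52 to 4.07), and in HC-Exo 3.23 times (3.04 to 3.43). Those of miR-125b-5p were 3.81 times (3.30 to 4.41) and 3.42 times (3.06 to 3.83) those of miR-99b-5p, which in turn had 9.31 times (6.20 to 14.5) and 9.23 times (6.75 to 12.9) the reads of miR-99a-5p. Between miR-99a-5p and miR-100-5p the ratio was 1.13 (0.620 to 2.07) in NC-Exo and 1.63 (0.987 to 2.74) in HC-Exo, so their order could not be told at this depth. By name, miR-99a-5p matched no sequence, so how well its reads are told from those of miR-100-5p was not checked. Read numbers of different miRNAs also depend on how well each sequence is ligated, which was not tested.

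**Figure D1:**
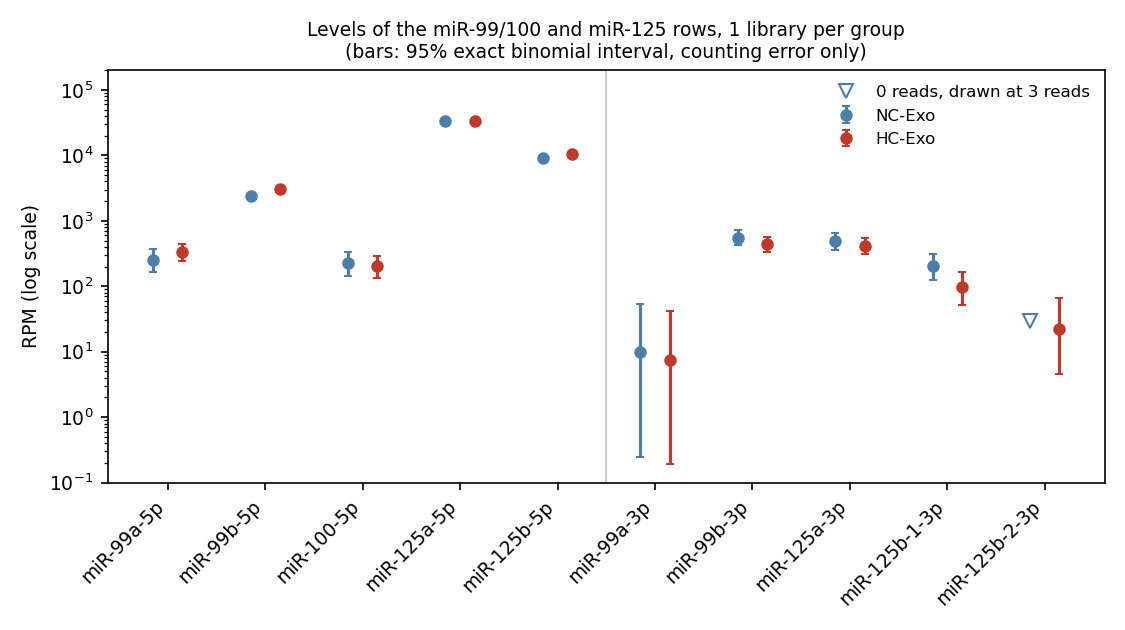
Levels of the 10 family rows in NC-Exo (blue) and HC-Exo (red), in RPM on a log scale, 5p rows left of the grey line and 3p rows right of it. Points are single libraries and bars are 95% exact binomial intervals, and the 5p levels reach from 203 RPM for miR-100-5p in HC-Exo to 33984 RPM for miR-125a-5p in NC-Exo, while the 0 reads of miR-125b-2-3p in NC-Exo are drawn as an open triangle at 3 reads.

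The 3p rows had few reads. miR-99b-3p had 57 reads (556 RPM) in NC-Exo and 58 (436 RPM) in HC-Exo, and miR-125a-3p had 50 (487 RPM) and 55 (413 RPM). miR-125b-1-3p had 21 reads (205 RPM) and 13 (97.6 RPM). These 3 rows had fewer RPM in HC-Exo than in NC-Exo. miR-99a-3p had 1 read in each library, and miR-125b-2-3p had 0 reads in NC-Exo, which by the floor of 3 reads allows up to 29.2 RPM (the two-sided 95% interval reaches 35.95 RPM), and 3 reads (22.5 RPM) in HC-Exo. Both were at or under the floor of 3 reads in both libraries, and no ratio is given for them.

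To ask whether the members differed between normal and hypertrophic cardiomyocyte exosomes, rows of at least 10 reads in the libraries combined were put to an exact binomial test, two-sided, with Benjamini-Hochberg adjustment over all 340 such rows. What this test compares is the pair of libraries (2 in all), not the conditions they stand for. Of the 10 family rows 8 were tested, the exceptions being miR-99a-3p and miR-125b-2-3p. At an adjusted p under 0.05, 2 of the 8 were higher in HC-Exo, miR-99b-5p and miR-125b-5p, against 13.8% of all tested rows (47 of 340). Both have many reads, and among the 135 rows with at least 100 reads, 5 of them family rows, 28.1% were called higher (38 rows). Lower in HC-Exo at an adjusted p under 0.05 were 0 of the 8, against 8.53% of all tested rows (29 of 340). At an unadjusted p under 0.05, miR-125b-1-3p was lower (p = 0.0375 in the exact binomial test). The other family rows under this limit were miR-99b-5p and miR-125b-5p, both higher. Among all 340 tested rows, 110 were under it, higher and lower rows counted as 1 set. When cultures were assumed to vary with a coefficient of 0.1, in the exact test of edgeR, 0 of all 340 rows passed in either direction, and 55 had an unadjusted p under 0.05. Differences of at least 2-fold were seen in 0 family rows upward, against 11.5% of all tested rows (39 of 340), and in 1 downward, miR-125b-1-3p, against 4.12% (14 of 340). With a pseudocount of 5 reads, the log2 ratio of miR-125b-1-3p was -0.91, under 2-fold. The split of calls over all rows depended on the scaling. It was 35 higher and 35 lower with TMM scaling (trimmed mean of M-values), 29 and 36 with totals lacking the 10 most abundant miRNAs or with the median log2 ratio set to 0, and 24 and 38 with upper-quartile scaling, which shifted every log2 ratio by -0.12. The split stayed close to that of library totals with DESeq2 size factors, at 45 higher and 29 lower. It was 47 and 29 with names of the same number and equal counts counted once in the totals.

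Compared with NC-Exo, miR-99b-5p was higher in HC-Exo by 0.37 on the log2 scale (0.14 to 0.61), or 1.29 times (1.10 to 1.52), with an adjusted p of 0.0109 in the exact binomial test. miR-125b-5p was higher by 0.22 on the log2 scale (0.095 to 0.34), or 1.16 times (1.07 to 1.26), with an adjusted p of 0.00389 in the exact binomial test. Both differences were well under 2-fold, and both calls were lost under 4 of the 6 other scalings of the libraries and under each assumed spread between cultures. For miR-99b-5p the adjusted p of the exact binomial test was 0.0515 with TMM, 0.129 with upper quartiles, 0.0768 with totals lacking the 10 most abundant miRNAs and 0.0887 with a median log2 ratio of 0. For miR-125b-5p these were 0.0681, 0.325, 0.139 and 0.171. Each scaling shifts both log2 ratios alike, to 0.30, 0.25, 0.28 and 0.27 for miR-99b-5p and 0.15, 0.093, 0.12 and 0.12 for miR-125b-5p, and the assumed spreads leave the log2 ratios as they were.

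miR-125a-5p had the narrowest interval of the members, with -0.011 on the log2 scale (-0.075 to 0.053) and an adjusted p of 0.869 in the exact binomial test. It was called lower under 3 scalings, with a log2 ratio of -0.13 and an adjusted p of 0.000624 with upper quartiles (exact binomial test), -0.10 and 0.0127 with totals lacking the 10 most abundant miRNAs, and -0.11 and 0.00729 with a median log2 ratio of 0. Whether this abundant member was called lower thus depended on the scaling. The log2 ratio was 0.38 (-0.35 to 1.14) for miR-99a-5p and -0.14 (-1.0 to 0.72) for miR-100-5p, with adjusted p-values of 0.556 and 0.891 in the exact binomial test. At 70 and 50 reads over both libraries, a change as large as that of miR-99b-5p was not detectable in these 2 members.

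The 3p rows did not pass the test. Their log2 ratios were -0.35 (-0.90 to 0.20) for miR-99b-3p, -0.24 (-0.82 to 0.34) for miR-125a-3p and -1.07 (-2.19 to -0.0025) for miR-125b-1-3p, with adjusted p-values of 0.428, 0.645 and 0.125 in the exact binomial test. The 5 tested 5p rows had a median log2 ratio of 0.22, with 3 above 0, and the 3 tested 3p rows a median of -0.35, with 0 above 0. The median of the 8 tested family rows was -0.078 with 3 above 0, beside 0.098 with 191 above 0 for all 340 tested rows.

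Among the 135 rows with at least 100 reads over both libraries, where counting error is smaller, the median log2 ratio was 0.098 and 81 were above 0. The log2 ratio of miR-99b-5p was higher than that of 102 of these rows, that of miR-125b-5p higher than 84 and that of miR-125a-5p higher than 53. Those of miR-125a-3p and miR-99b-3p were higher than 24 and 16. The middle of this distribution, from its 25% to its 75% quantile, ran from -0.17 to 0.36, so that miR-99b-5p lay just above it and miR-125b-5p and miR-125a-5p lay inside it.

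**Figure D2:**
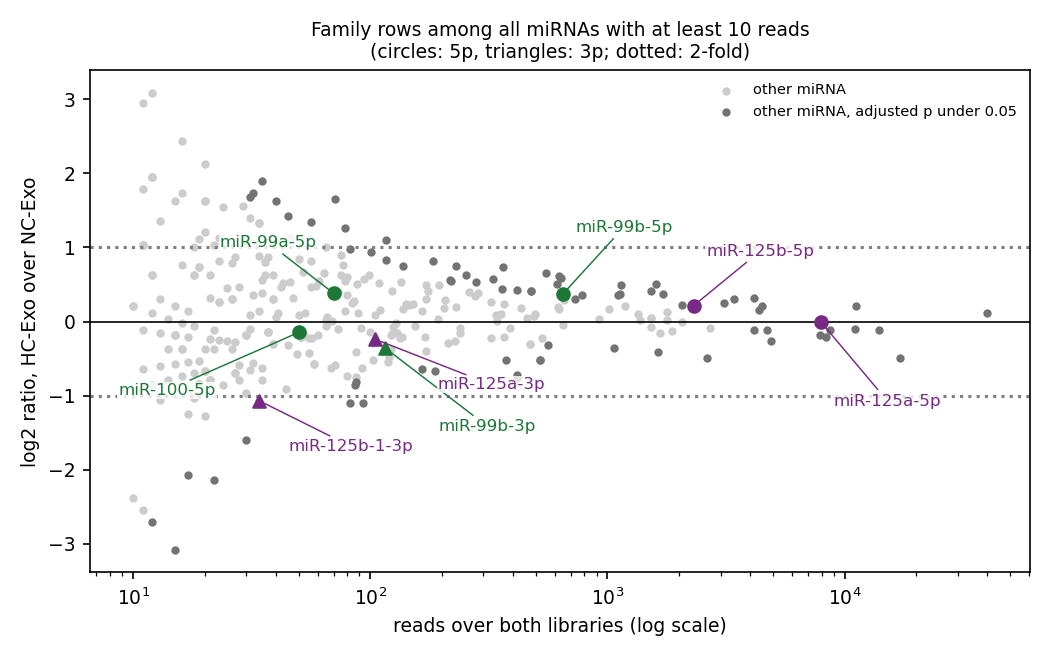
Log2 ratio (HC-Exo to NC-Exo) against the reads over both libraries (log scale) for the 340 tested rows, with miR-99/100 rows in green, miR-125 rows in violet, circles for 5p and triangles for 3p. The 5p members with many reads lie close to 0, from -0.011 for miR-125a-5p to 0.37 for miR-99b-5p, and miR-125b-1-3p at -1.07 is the family row beyond a 2-fold difference (dotted lines). With a pseudocount of 5 reads, the log2 ratio of miR-125b-1-3p was -0.91, under 2-fold.

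The families were then compared by their summed 5p reads. The miR-99/100 family had 291 reads in NC-Exo, 2836 RPM (2520 to 3181), and 477 in HC-Exo, 3582 RPM (3268 to 3918). The miR-125 family had 4409 reads in NC-Exo, 42969 RPM (41737 to 44228), and 5881 in HC-Exo, 44167 RPM (43069 to 45284). Thus the miR-125 family was the larger by far in both libraries. The log2 ratio of the miR-99/100 sum was 0.34 (0.12 to 0.55), and it was above 0 under every scaling tried, at the lowest 0.21 with upper quartiles. Without miR-99b-5p, the log2 ratio of this sum was 0.16, with an interval (-0.39 to 0.71) that spans 0. That of the miR-125 sum was 0.040 (-0.017 to 0.096) and turned below 0 under 4 scalings, to -0.084 with upper quartiles.

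The difference between the families does not depend on the scaling of the libraries, since it cancels. It was 0.30 on the log2 scale (exact conditional interval 0.076 to 0.52), so that the ratio of the miR-99/100 sum was 1.23 times (1.05 to 1.43) that of the miR-125 sum. In reads, there were 0.0660 miR-99/100 reads for each miR-125 read in NC-Exo against 0.0811 in HC-Exo. Most reads behind this difference are of the dominant member of each family. Without miR-99b-5p and miR-125a-5p it was -0.057, with a wide interval (-0.62 to 0.51) that also holds 0.30. Between the medians of the members it was 0.27, and with the 3p reads added to both sums it was 0.21 (0.0037 to 0.42).

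The make-up of each family was compared next. miR-99b-5p gave 83.2% of the miR-99/100 reads in NC-Exo (78.4% to 87.3%) and 85.1% in HC-Exo (81.6% to 88.2%). miR-99a-5p gave 8.93% and 9.22%, and miR-100-5p 7.90% and 5.66%. The shares within this family had overlapping intervals, and the difference in log2 ratio between miR-99b-5p and the sum of the other members was 0.21 (-0.40 to 0.81). In the miR-125 family the share of miR-125b-5p was 20.9% in NC-Exo (19.7% to 22.1%) and 23.6% in HC-Exo (22.6% to 24.7%), with the rest from miR-125a-5p. The log2 ratio of miR-125b-5p exceeded that of miR-125a-5p by 0.23 (0.090 to 0.37), so these sequences with 1 seed were not present in the same proportion in both libraries.

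**Figure D3:**
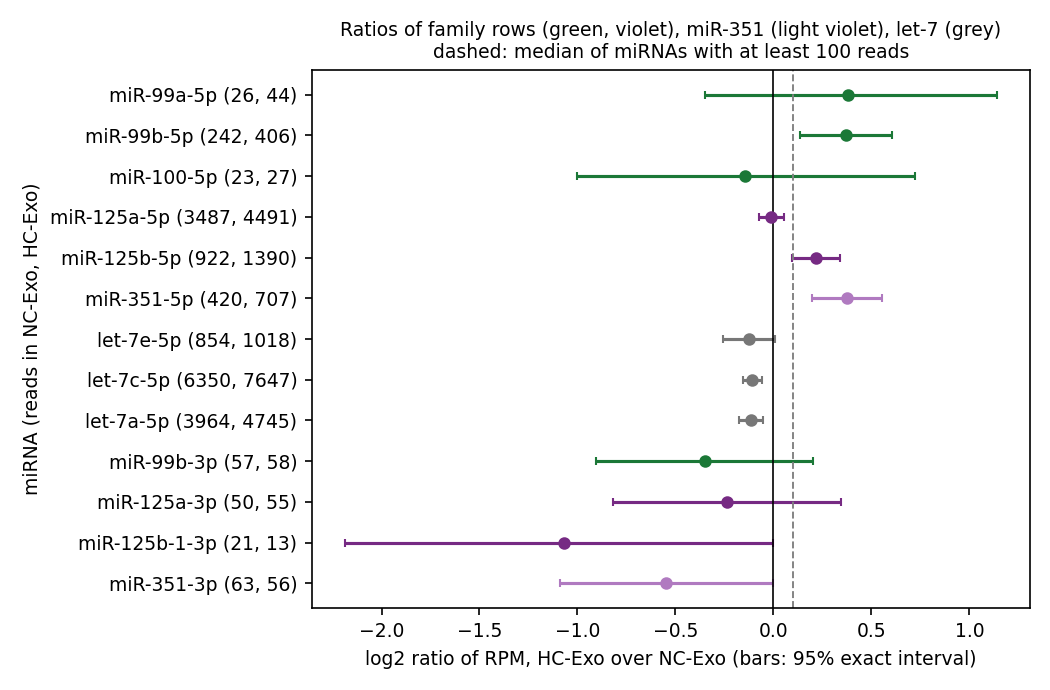
Log2 ratio (HC-Exo to NC-Exo) with 95% exact intervals for the 8 tested family rows (green miR-99/100, violet miR-125), both arms of miR-351 (light violet) and the let-7 partners (grey), with the reads of each library in brackets. Intervals of miR-99b-5p (0.14 to 0.61), miR-125b-5p (0.095 to 0.34) and miR-351-5p lie above 0, those of let-7c-5p, let-7a-5p, miR-125b-1-3p and miR-351-3p lie below 0, the upper ends of the last pair close to it, the others span 0, and the dashed line marks the median of 0.098 over rows with at least 100 reads.

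To ask whether members encoded in 1 cluster shared their ratios, each pair within the 3 clusters was compared by the difference of log2 ratios, which is again free of the scaling. Of these 9 pairs, 4 had an interval that excluded 0, and the intervals were not adjusted for the number of pairs. How often pairs of miRNAs from different loci differ as much was not tested, so this count says nothing particular to clusters. The log2 ratios of the let-7 partners themselves were those of let-7e-5p with 854 reads in NC-Exo against 1018 in HC-Exo, at -0.12 (-0.26 to 0.010; adjusted p = 0.199 in the exact binomial test), let-7c-5p with 6350 and 7647, -0.11 (-0.16 to -0.060; adjusted p = 0.000167), and let-7a-5p with 3964 and 4745, -0.12 (-0.18 to -0.055; adjusted p = 0.00196).

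In the cluster of miR-99b, let-7e and miR-125a, whose mature 5p forms differ from those of the other clusters, miR-99b-5p stood apart from both neighbours. There were 0.283 reads of miR-99b-5p for each read of let-7e-5p in NC-Exo against 0.399 in HC-Exo, a log2 difference of 0.49 (0.22 to 0.76). For each read of miR-125a-5p there were 0.0694 and 0.0904, a difference of 0.38 (0.14 to 0.63). miR-125a-5p and let-7e-5p were not told apart, with 4.08 and 4.41 reads of the former for each of the latter and a difference of 0.11 (-0.036 to 0.26). These intervals cover counting error between these libraries and set the pairs against no others.

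In the other clusters, miR-99a-5p and miR-100-5p had too few reads to be told from their neighbours. The difference was 0.49 (-0.24 to 1.25) between miR-99a-5p and let-7c-5p, 0.17 (-0.58 to 0.94) between miR-99a-5p and miR-125b-5p, -0.028 (-0.89 to 0.84) between miR-100-5p and let-7a-5p, and -0.36 (-1.23 to 0.52) between miR-100-5p and miR-125b-5p. All 4 intervals span 0. miR-125b-5p had 0.145 reads for each read of let-7c-5p in NC-Exo against 0.182 in HC-Exo, a difference of 0.32 (0.19 to 0.46), and 0.233 and 0.293 for each read of let-7a-5p, a difference of 0.33 (0.20 to 0.47). These differences belong to no single cluster, because mature let-7a, let-7c and miR-125b each come from more than 1 hairpin and their reads cannot be split by locus.

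**Figure D4:**
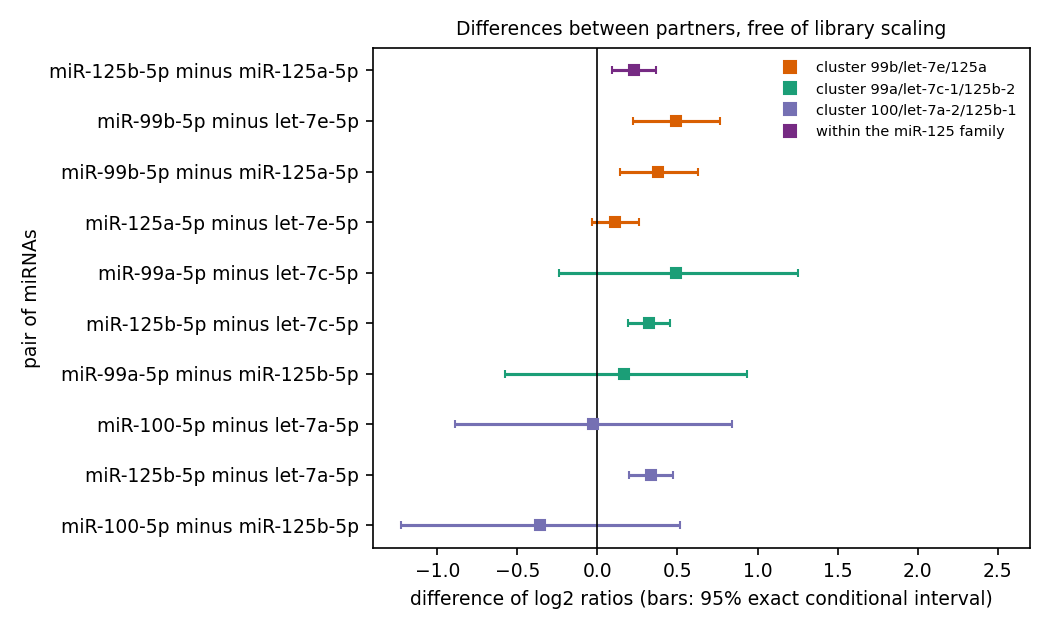
Differences of log2 ratios (HC-Exo over NC-Exo) between cluster partners and within the miR-125 family, with 95% exact conditional intervals and colours for the clusters. Intervals of 4 of the 9 cluster pairs lie above 0, those of miR-99b-5p against let-7e-5p (0.49) and miR-125a-5p (0.38) and of miR-125b-5p against let-7c-5p (0.32) and let-7a-5p (0.33), while the pairs of miR-99a-5p and miR-100-5p span 0.

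The arms of single hairpins were compared because both are cut from the same precursor. The Mir99b and Mir125a hairpins are shown with both mature arms in capitals, 5′ to 3′ on the plus strand of GRCr8.
Mir99b: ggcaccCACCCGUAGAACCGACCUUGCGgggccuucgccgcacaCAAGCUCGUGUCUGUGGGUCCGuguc
Mir125a: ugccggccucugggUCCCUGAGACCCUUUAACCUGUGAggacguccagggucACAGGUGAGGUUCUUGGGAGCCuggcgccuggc
In NC-Exo, miR-99b-3p gave 19.1% of the reads of both arms (14.8% to 24%), and in HC-Exo 12.5% (9.63% to 15.9%). The 3p share of miR-125a was 1.41% (1.05% to 1.86%) and 1.21% (0.913% to 1.57%). The hairpins thus differed widely in the share of 3p reads. This share also depends on how well each arm is ligated and matched to the mouse names, which was not tested. For each miR-99b-3p read there were 4.25 reads of miR-99b-5p in NC-Exo against 7.0 in HC-Exo, a log2 difference between the arms of 0.72 (0.12 to 1.33). For miR-125a the difference was 0.23 (-0.36 to 0.81).

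The 3p arms also tell the hairpins of miR-125b apart, as their 5p form is the same. They are shown with the seed in capitals.
miR-125b-1-3p: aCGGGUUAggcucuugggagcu
miR-125b-2-3p: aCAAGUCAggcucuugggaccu
The substitutions from miR-125b-1-3p to miR-125b-2-3p are G3A, G4A, U7C and G20C, and 3 of these 4 lie in the seed. Of the 3p reads of miR-125b, all 21 in NC-Exo and 13 of 16 in HC-Exo were of miR-125b-1-3p, the arm of the hairpin beside miR-100. Both 3p rows together gave 2.23% of the miR-125b reads in NC-Exo (1.38% to 3.38%) and 1.14% in HC-Exo (0.652% to 1.84%). There were 43.9 reads of miR-125b-5p for each of miR-125b-1-3p in NC-Exo against 107 in HC-Exo, a log2 difference of 1.28 (0.21 to 2.41), which rests on 34 reads of the 3p arm.

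A higher ratio of the major to the minor arm in HC-Exo was not general. In a comparison chosen after the data were examined, 45 hairpins had at least 100 reads of the major and 10 of the minor arm, and this ratio was higher in HC-Exo in 19 of them, with a median log2 difference of -0.18. The interval lay above 0 in 7 hairpins, miR-99b among them, and below 0 in 10. The rows are not all separate measurements, since counts are equal in both arms of miR-486a and miR-486b, which are among these 10, and in the major arms of miR-199a and miR-199b and of miR-669a and miR-669o. The miR-125b hairpins are outside this count, as their arms carry different names.

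**Figure D5:**
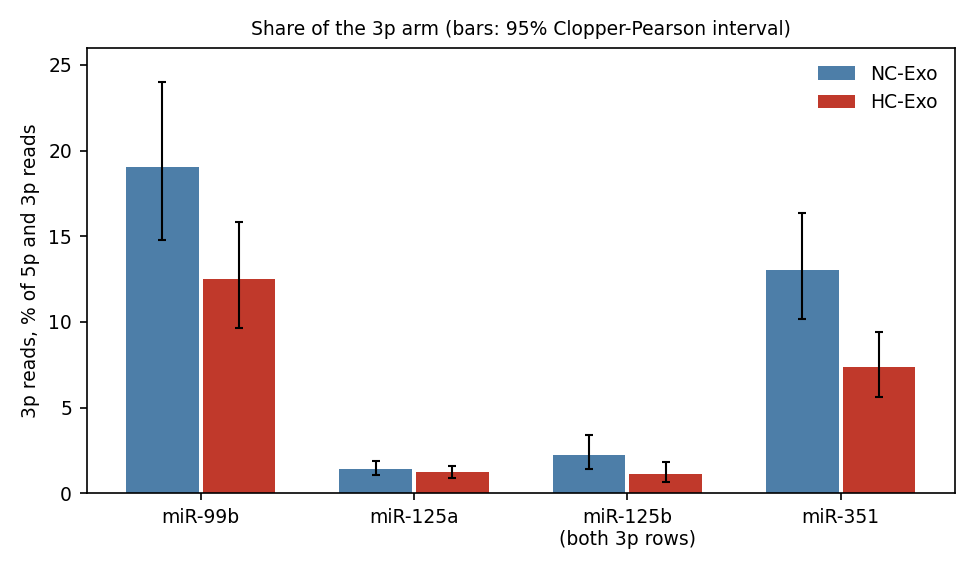
Share of 3p reads in the 5p and 3p reads of miR-99b, miR-125a, miR-125b and miR-351, in percent, for NC-Exo (blue) and HC-Exo (red), with 95% Clopper-Pearson intervals. The share of miR-99b was 19.1% in NC-Exo against 12.5% in HC-Exo, while that of miR-125a was 1.41% and 1.21%.

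Outside the families, miR-351-5p, which has the miR-125 seed but another locus, had 420 reads in NC-Exo against 707 in HC-Exo. Its log2 ratio was 0.38 (0.20 to 0.55), with an adjusted p of 0.000315 in the exact binomial test. This exceeded the ratio of miR-125a-5p by 0.39 (0.20 to 0.58), and the difference from miR-125b-5p was 0.16 (-0.056 to 0.38). The rows with the seed CCCUGAG together had 4829 reads in NC-Exo against 6588 in HC-Exo, and their members had unequal ratios. miR-351-3p had 63 and 56 reads, at -0.55 on the log2 scale (-1.09 to -0.0033), with an adjusted p of 0.134 in the exact binomial test, and the arms of miR-351 differed by 0.92 (0.35 to 1.5), in the direction seen for miR-99b and miR-125b.

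By closeness of the log2 ratio alone, over 2 libraries and among 35 other miRNAs with at least 1000 reads, the nearest to the miR-99/100 sum (0.34) were miR-133a-3p, with 417 and 694 reads and 0.36, and miR-143-3p, with 1596 and 2571 reads and 0.31. Nearest to the miR-125 sum (0.040) were miR-486a-5p and miR-486b-5p, listed with the same 654 and 875 reads and 0.044. With 1 value per miRNA, such closeness describes these libraries and no shared pattern over samples.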

How the data were processed

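Exosomal RNA was extracted with TRIzol, made into libraries with an Illumina small RNA kit and sequenced, 1 library per group. The authors deposited counts of reads per mature miRNA name, without normalization, and these were the input of each test. A deposited table of normalized signal, the counts times a constant per library in nearly all rows, was used in no test. The authors' comparison table (scaled reads, fold changes, p- and q-values) was not used. The submitters' processing notes name Bowtie2 and the mouse builds mm9 and GRCm38 without their role. Trimming, mismatches and the counting of reads that match several names are not given in the sources used here.

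RPM used the totals of all 635 rows. Rows with at least 10 reads over both libraries were tested by a two-sided exact binomial test against the share of the HC-Exo total in both totals, adjusted by Benjamini-Hochberg, with a call at an adjusted p under 0.05. A library at or under 3 reads gave no ratio when the other was too. Log2 ratios have exact (Clopper-Pearson) intervals of 95%, differences of log2 ratios exact conditional intervals of the odds ratio. Family sums have intervals and no p. No coordinates are given, because the builds differ from GRCr8.

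The named miRNAs are the family rows, their cluster partners with 3p arms, miR-351 for its seed, miR-10 as a relative of miR-100, the 2 nearest by log2 ratio per family, and the markers. Members and lists were chosen with earlier results of these data known. As alternatives, edgeR 4.0.16 gave TMM factors, upper-quartile factors and an exact test with an assumed spread, and DESeq2 1.42.0 gave its size factors (R 4.3.3), beside other totals, filters, pseudocounts and sums. Python 3.11.15, scipy 1.17.1, numpy 2.4.6, pandas 2.3.3 and matplotlib 3.10.9 did the rest. The scripts were tested on simulated data.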

Additional observations from a re-analysis of the deposited data

How the results depend on the processing

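No paired analysis was possible because NC-Exo and HC-Exo were each 1 library, and no replicate could be left out. Of 144 values under alternatives, 117 counted as unchanged. Member rows had kept direction and side of the threshold, or moved within counting error with a pseudocount. Family values had moved within counting error, and numbers of rows called had stayed near 76. Of the 117, 94 were of single members, where a row not called in either setting counted as unchanged. Other filters and assumed spreads leave log2 ratios as they were, so direction could not change there. The number of rows called by the exact binomial test (76) became 0 with edgeR's exact test at an assumed coefficient of variation of 0.1, 0 at 0.2 and 0 at 0.4, with 55, 20 and 1 at an unadjusted p under 0.05 against 110. Other filters and scalings gave 62 to 76. The calls split into 47 higher and 29 lower with library totals, 35 and 35 with TMM, 29 and 36 with totals lacking the 10 most abundant miRNAs or with a median log2 ratio of 0, and 24 and 38 with upper quartiles. They split into 45 and 29 with DESeq2 size factors, and into 47 and 29 with names of equal counts counted once. The log2 ratio of the miR-125 sum (0.040) was -0.030 with TMM, -0.084 with upper quartiles, -0.052 with totals lacking the 10 most abundant miRNAs, -0.059 with a median log2 ratio of 0, 0.22 without miR-125a-5p and 0.10 as the median of the members. That of the miR-99/100 sum moved within counting error under all 9 alternatives, from 0.16 without miR-99b-5p to 0.37. The interval of the former, -0.39 to 0.71, spans 0. The difference between the families reversed to -0.057 without the most abundant members, with an interval of -0.62 to 0.51 that also holds 0.30, and was 0.27 between the medians of the members. Calls of miR-99b-5p and miR-125b-5p were each kept under 5 of the 12 alternatives that gave a test and lost under 7. With an assumed coefficient of 0.1, edgeR's adjusted p was 0.451 and 0.680. Over all alternatives the adjusted p ran from 0.00632 to 1 for miR-99b-5p, from 0.00220 to 1 for miR-125b-5p and from 0.000624 to 1 for miR-125a-5p. With at least 50 reads required, miR-125b-1-3p has no value, and with a pseudocount of 5 reads its log2 ratio of -0.91 is under 2-fold. Counting names of the same number with equal counts once in the library totals, chosen after the data were examined, took 17 rows out of the totals, not out of the test, and changed no call of a member. Beyond the choices themselves, the cause of these changes was not tested. At 50 to 70 reads over both libraries, miR-99a-5p and miR-100-5p are limited by depth. The split of reads between these names is uncertain too, as the counting of reads that match several names is not given.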

Other observations

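Cluster partners of the 3p arm had few reads. let-7c-1-3p had 7 reads in NC-Exo against 14 in HC-Exo, let-7e-3p had 6 and 16 (log2 ratio 1.04, exact binomial test, adjusted p = 0.301), and let-7a-2-3p had 0 and 1. The rows let-7a-1-3p and let-7c-2-3p were both listed with 230 and 243 reads, and their RefSeq sequence in GRCr8 is the same, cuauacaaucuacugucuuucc, so these rows hold 1 measurement.

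miR-10a-5p has an 11-base run in common with miR-100-5p, guagauccgaa, but its seed is ACCCUGU.
miR-10a-5p: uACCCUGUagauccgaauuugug
It had 7 reads in NC-Exo against 10 in HC-Exo, and miR-10b-5p had 11 and 9, fewer than miR-100-5p with 23 and 27.

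The miR-99 hairpins can also be compared by their 3p arms, which have the seed AAGCUCG in common and differ by G10U, G14A and C21U, from miR-99b-3p to miR-99a-3p.
miR-99b-3p: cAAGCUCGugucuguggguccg
miR-99a-3p: cAAGCUCGuuucuaugggucug
The 3p share was 3.70% in NC-Exo (0.0937% to 19.0%) and 2.22% in HC-Exo (0.0562% to 11.8%) for miR-99a, against 19.1% and 12.5% for miR-99b. With 1 read of miR-99a-3p in each library, the intervals of the hairpins overlap.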
